A study of Homo sapiens with 14 samples.

Results

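GATA3 ChIP-seq peaks at the genes of collagen chains were examined in MDA-MB-231, a human cell line of triple-negative breast cancer. The 44 collagen genes COL1A1 to COL28A1 were chosen by name, and a region was counted for a gene when it overlapped the gene's span on hg38 or the 50 kb on either side. Peaks of 12 lists, merged wherever they overlapped by at least 1 bp, gave 78999 regions, and 407 of them lay in these windows. Of the 44 genes 41 (93.2%) had at least 1 region, against 88.4% of protein-coding genes. Cells carried the GATA3 point mutant A442M, the mutant G444E or wildtype GATA3 (WT), each with FLAG on its C-terminal end (A442M-FLAG, G444E-FLAG, WT-FLAG) or without a tag, and each of these 6 groups had 2 libraries. All were harvested on day 3 without treatment and precipitated with an antibody against GATA3, not against the tag. According to the design text the tag stabilises GATA3 whatever the mutation. The labels name neither the promoter nor the clones behind the GATA3 copies. They do not say whether replicates were separate cultures, and differences between replicates may be technical. The p-values below count each library as independent and estimate no spread between replicates. Of the 2 samples with empty vector no list was used here, so what a region holds beyond GATA3 was not measured. RNA was not measured, so nothing below is an expression level, and the identity of the line was not checked against marker genes.

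Collagens are secreted or membrane-bound helical proteins of the extracellular matrix. Fibrillar collagens build the load-bearing fibres of connective tissue, type IV collagen forms the sheet of basement membranes, and fibril-associated collagens (FACIT) decorate fibres without forming them. Carcinoma cells cross basement membranes and fibrillar stroma when they invade, and mesenchymal-type lines such as MDA-MB-231 are often studied for their matrix genes. GATA3 directs the luminal programme of the mammary gland and recognises, through its zinc fingers, a short GATA word in DNA.

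Listed starts of collagen genes carried peaks about as often as those of other genes. RefSeq promoters (GRCh38.p14, 250 bases before to 50 after a start) were listed for 32 of the 44 genes, 44 promoters in all. None was listed for COL1A1, COL1A2, COL2A1, COL3A1, COL5A2, COL6A1, COL6A5, COL8A1, COL9A3, COL14A1, COL20A1 or COL22A1, so the starts of these genes were not examined. Of the 44 promoters 6 (13.6%) overlapped a region called in any library, against 14.5% of 22199 promoters of protein-coding genes. Of 4 GATA words searched on both strands, AGATAA, the word AGATAG, the word TGATAA or the word TGATAG occurred in 8 collagen promoters (18.2%), against 20% of the protein-coding ones. The promoters of COL12A1 and COL21A1, the most often called ones, follow with that of COL4A5, called in 1 library, and that of COL17A1, which held a word and no peak. Each line gives the 250 bases before the start, read 5′ to 3′ on the strand of the gene, with GATA words in capitals.
COL12A1, chr6:75206054-75206303, minus strand: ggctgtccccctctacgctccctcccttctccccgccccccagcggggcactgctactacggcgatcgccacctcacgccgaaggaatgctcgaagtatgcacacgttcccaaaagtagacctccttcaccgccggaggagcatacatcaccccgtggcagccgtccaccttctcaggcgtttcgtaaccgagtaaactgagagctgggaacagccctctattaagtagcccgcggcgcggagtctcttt
COL21A1, chr6:56247581-56247830, minus strand: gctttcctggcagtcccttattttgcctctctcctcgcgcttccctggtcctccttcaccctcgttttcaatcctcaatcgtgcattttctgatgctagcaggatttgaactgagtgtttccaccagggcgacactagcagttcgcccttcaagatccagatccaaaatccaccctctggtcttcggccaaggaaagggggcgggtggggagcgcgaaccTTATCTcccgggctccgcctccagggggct
COL4A5, chrX:108439588-108439837, plus strand: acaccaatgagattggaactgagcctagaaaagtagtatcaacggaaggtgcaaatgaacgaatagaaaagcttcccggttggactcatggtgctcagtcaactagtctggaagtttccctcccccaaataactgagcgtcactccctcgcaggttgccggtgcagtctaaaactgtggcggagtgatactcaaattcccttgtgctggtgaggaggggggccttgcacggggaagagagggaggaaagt
COL17A1, chr10:104085881-104086130, minus strand: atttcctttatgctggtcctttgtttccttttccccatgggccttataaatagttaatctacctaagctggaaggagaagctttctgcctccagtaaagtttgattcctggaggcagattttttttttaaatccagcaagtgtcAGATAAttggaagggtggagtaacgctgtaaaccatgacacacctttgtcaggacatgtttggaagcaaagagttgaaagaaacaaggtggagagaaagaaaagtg

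The start of COL12A1, a FACIT chain that binds type I collagen fibres, lay in a region called in 11 of the 12 libraries, all except G444E replicate 2. That region ran from 75205289 to 75206579 on chromosome 6, with its centre 120 bases inside the gene from the start. The 250 bases above held none of the 4 words. Within-list score percentiles there, the rank of the authors' peak score among all peaks of a list, were 44.7 and 2.43 in A442M-FLAG, 60.6 and 15.9 in G444E-FLAG, and 32.0 and 26.9 in WT-FLAG. Untagged, they were 72.0 and 39.2 in A442M, 34.6 in the only G444E library with a peak, and 54.0 and 27.4 in WT. So the peak was of middle to low rank in most lists.

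COL21A1, a FACIT chain of vessel walls, has 3 listed starts, and the second along the chromosome lay in a region (chromosome 6, 56247206 to 56247946) whose centre was 4 bases from it. Both untagged A442M libraries and both untagged WT libraries called it, and none of the 6 FLAG libraries or the untagged G444E libraries did. Percentiles were 30.05 and 15.5 in A442M and 16.4 and 37.5 in WT. The word TTATCT, which reads AGATAA on the other strand, began 30 bases before this start, as the capitals show. The 2 other COL21A1 promoters also held words (AGATAG in one, TTATCA followed by TTATCT in the other) and no peak. Peaks at the shared start of COL4A5 and COL4A6 (WT-FLAG replicate 1), at COL4A4 (WT replicate 2) and at COL7A1 (A442M replicate 1) were each called in 1 library. COL10A1, COL17A1, COL19A1, COL25A1 and a second start of COL4A6 held a word and no peak.

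Most regions lay well away from the listed starts. Of the 407 regions 247 (60.7%) had their centre inside a collagen gene, 48 lay inside another protein-coding gene, and a collagen gene was the nearest protein-coding gene, or held the centre, for 322. Of the 319 regions with a listed start among their genes, 5 were centred within 1 kb of it and 31 within 10 kb. Windows of neighbouring genes overlapped, and 25 regions counted for a pair of collagen genes. COL4A5 and COL4A6 shared 9, COL4A1 and COL4A2 shared 8, COL3A1 and COL5A2 shared 4, COL4A3 and COL4A4 shared 3, and COL9A1 and COL19A1 shared 1. Collagen windows held 37.7 regions per Mb, against 33.1 per Mb in the windows of all 20037 protein-coding genes, and 4.72 against 4.53 regions per Mb called in every library. Regions called in all 12 libraries numbered 51 of 407 (12.5%), against 13.8% of all regions, and 97 (23.8%) were called in 1 library, against 23.5%. The median width was 435 bp in collagen windows and 452 bp in protein-coding windows.

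Of the collagen genes 22 of 44 (50%) had a region called in all 12 libraries, against 40.6% of protein-coding genes. Collagen genes are long, with a median span of 145 kb against 24.1 kb for protein-coding genes. Of genes of 200 to 500 kb, 10 of 14 collagen genes (71.4%) and 62.6% of protein-coding genes had such a region. Between 100 and 200 kb it was 7 of 12 (58.3%) and 57.8%, and between 50 and 100 kb 3 of 6 (50%) and 48.8%. Of genes of up to 50 kb it was 2 of 12 (16.7%) and 34.3%. These are descriptions and the differences were not tested.

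**Figure D1:**
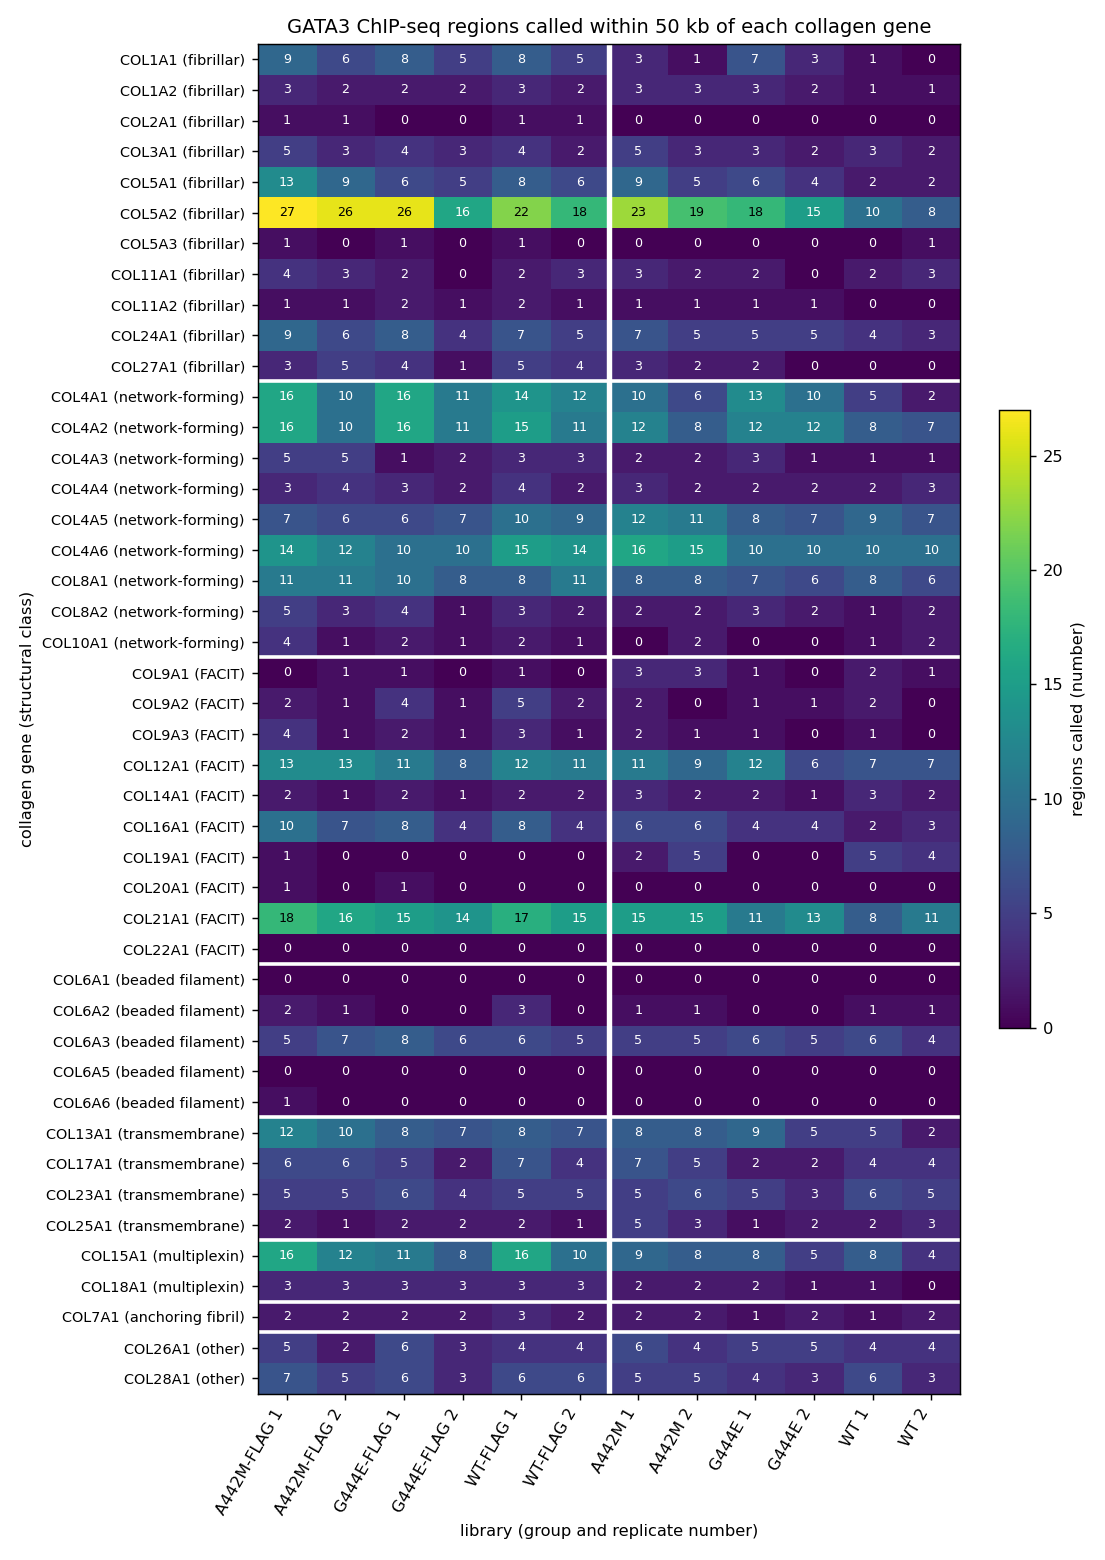
Number of regions called within 50 kb of each of the 44 collagen genes (rows, by structural class) in each of the 12 libraries (columns), with FLAG libraries left of the white line and untagged ones right of it. COL5A2 had between 8 and 27 regions a library, COL21A1 had 11 against its 8 in WT replicate 2, and the COL22A1, COL6A1 and COL6A5 rows are 0 throughout.

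Among the 11 fibrillar genes, COL5A2, a chain of type V collagen that helps set fibril diameter, had 41 regions, and 5 were shared by all libraries. That is more regions than, or as many as, 99.7% of protein-coding genes had, and per Mb of window (80.5) it stood at percentile 91.4. COL5A2 counted 27 and 26 regions in A442M-FLAG, 26 and 16 in G444E-FLAG and 22 and 18 in WT-FLAG. Untagged, it had 23 and 19 regions in A442M, 18 and 15 in G444E, and 10 and 8 in WT. Both untagged WT libraries lay below all 10 others, as they did in 6 of 41 collagen genes (14.6%), against 11.5% of protein-coding genes with a region. COL5A1, its partner chain, had 16 regions, with 13 and 9 in A442M-FLAG, 6 and 5 in G444E-FLAG, 8 and 6 in WT-FLAG, 9 and 5 in A442M, 6 and 4 in G444E, and 2 and 2 in WT. COL24A1, which is expressed in bone, had 14 regions, 2 of them in all libraries.

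COL1A1, a chain of type I collagen, had 12 regions in a short window, 102.1 per Mb, the highest density of the 44 genes, at percentile 96.5 of protein-coding genes. None was called in every library. Counts were 9 and 6 in A442M-FLAG, 8 and 5 in G444E-FLAG, 8 and 5 in WT-FLAG, 3 and 1 in A442M, 7 and 3 in G444E, and 1 and 0 in WT. The FLAG libraries and untagged G444E therefore overlapped, and untagged A442M and WT lay below the FLAG libraries. The share of protein-coding genes with this pattern was not counted. Untagged A442M and WT also differed from the other libraries in peaks on unplaced contigs, as described below. Of the 12 regions 1 overlapped the gene span itself. COL1A2, the second chain of type I collagen, had 4 regions, 1 of them in every library. Its counts were 3 and 2 in A442M-FLAG, 2 and 2 in G444E-FLAG, 3 and 2 in WT-FLAG, 3 and 3 in A442M, 3 and 2 in G444E, and 1 and 1 in WT. COL3A1, of skin and vessel walls, had 7 regions with 2 in all libraries. The cartilage genes COL2A1, COL11A1 and COL11A2 had 1, 7 and 3 regions, COL27A1 had 7 and COL5A3 had 3, none of them in all libraries.

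Of the network-forming genes, COL4A1 and COL4A2, which encode the chains of the common basement membrane network and lie head to head, had 18 and 23 regions. COL4A1 had 16 and 10 regions in A442M-FLAG, 16 and 11 in G444E-FLAG, 14 and 12 in WT-FLAG, 10 and 6 in A442M, 13 and 10 in G444E, and 5 and 2 in WT. Again both untagged WT libraries lay below the 10 others. COL4A2 had 16 and 10 regions in A442M-FLAG, 16 and 11 in G444E-FLAG, 15 and 11 in WT-FLAG, 12 and 8 in A442M, 12 and 12 in G444E, and 8 and 7 in WT, where the lowest A442M library met the highest WT library. Their highest ranked region that WT lacked, on chromosome 13 from 110338323 to 110339688, lay inside COL4A2, 31721 bases from its start. It was called in every library except both untagged WT libraries, with percentiles of 95.2 and 97.4 in A442M-FLAG, 95.1 and 95.3 in G444E-FLAG, and 96.9 and 97.0 in WT-FLAG. Untagged, they were 80.3 and 83.6 in A442M, and 92.1 and 95.4 in G444E.

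**Figure D2:**
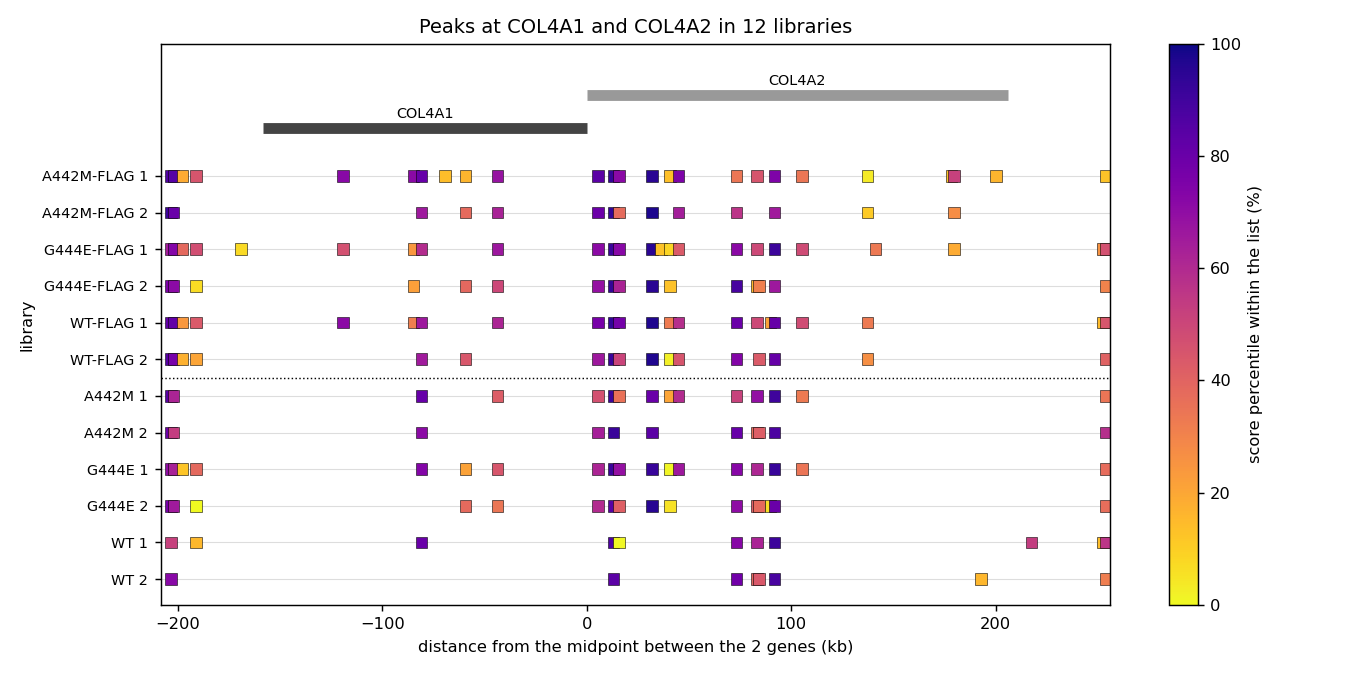
Peaks in the windows of COL4A1 and COL4A2, with the distance from the midpoint between both genes in kb on the horizontal axis and 1 line per library, FLAG above the dotted line and untagged below it. Each square is a called peak, coloured by its score percentile within the list. The dark column near 32 kb is the region inside COL4A2 that neither WT library called.

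COL4A6, a chain of smooth muscle and epidermal basement membrane, had 21 regions and COL4A5, a chain of the kidney filter, had 18. COL4A6 had 14 and 12 regions in A442M-FLAG, 10 and 10 in G444E-FLAG, 15 and 14 in WT-FLAG, 16 and 15 in A442M, 10 and 10 in G444E, and 10 and 10 in WT. COL4A5 had 7 and 6 regions in A442M-FLAG, 6 and 7 in G444E-FLAG, 10 and 9 in WT-FLAG, 12 and 11 in A442M, 8 and 7 in G444E, and 9 and 7 in WT. Both genes had more regions in untagged A442M than in A442M-FLAG, with no overlap, although the A442M-FLAG lists were the longer ones, a direction that held for 5 of 41 collagen genes (12.2%), against 5.93% of protein-coding genes with a region. COL8A1, of vessel walls and the cornea, had 16 regions with 2 in all libraries. COL4A3 and COL4A4, the other chains of the kidney filter, had 7 each, COL10A1, a marker of hypertrophic cartilage, had 6, and COL8A2 had 5.

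Of the 10 FACIT genes, COL21A1 had 24 regions and the highest number called in every library, 7. Its counts were 18 and 16 in A442M-FLAG, 15 and 14 in G444E-FLAG, 17 and 15 in WT-FLAG, 15 and 15 in A442M, 11 and 13 in G444E, and 8 and 11 in WT. COL12A1 had 21 regions (94.7 per Mb), 4 of which every library called. It counted 13 and 13 regions in A442M-FLAG, 11 and 8 in G444E-FLAG, 12 and 11 in WT-FLAG, 11 and 9 in A442M, 12 and 6 in G444E, and 7 and 7 in WT. COL16A1 had 14 regions with 2 in all libraries. COL9A2 and COL9A3, of cartilage, had 6 regions each, COL14A1 had 4, COL20A1 had 1, and COL22A1, of the muscle-tendon junction, had none in any library.

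COL19A1, a rare FACIT chain of basement membrane zones, did not follow the length of the lists. It counted 1 and 0 regions in A442M-FLAG, 0 and 0 in G444E-FLAG, 0 and 0 in WT-FLAG, 2 and 5 in A442M, 0 and 0 in G444E, and 5 and 4 in WT. Untagged A442M and WT thus lay above the 8 other libraries with no overlap, which holds for 1 of the 41 collagen genes with a region and for 1.27% of protein-coding genes with one. A region inside the gene (chromosome 6, 69918773 to 69919215) had percentiles of 63.5 and 55.1 in A442M and 78.9 and 76.0 in WT and was called nowhere else. A region inside the neighbouring COL9A1, from 70257930 to 70258494, was called in the same 4 libraries, as were the COL21A1 start described above and a region near COL6A2 (chromosome 21, 46060780 to 46061648). These 4 of 407 regions (0.983%) stand beside 0.818% of all regions with this pattern, a set that was looked at after its values had been seen. Untagged A442M and WT also held more peaks on unplaced contigs, 57 to 110 a list, than the 8 other libraries, 16 to 25. A difference in how those libraries were made cannot be told apart from genotype and tag in any comparison that crosses this divide, and its part in the results was not tested.

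**Figure D3:**
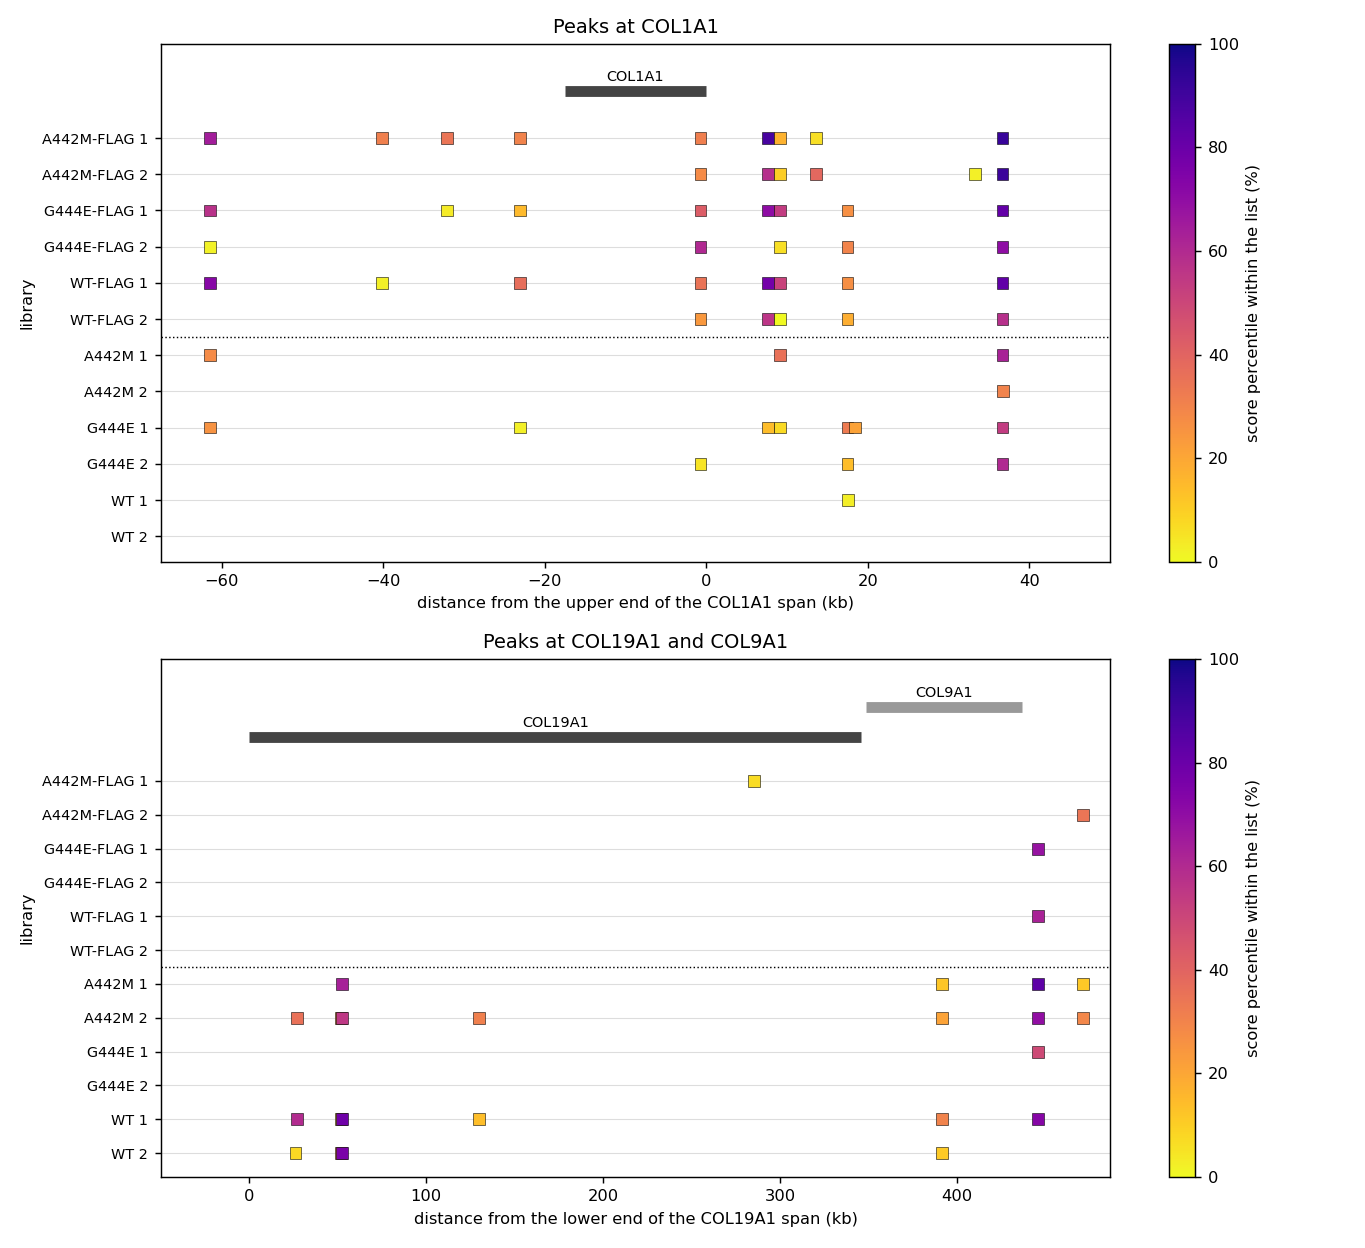
Peaks at COL1A1 (upper panel, distance from the upper end of its span in kb) and at COL19A1 and COL9A1 (lower panel, distance from the lower end of COL19A1 in kb), 1 line per library, FLAG above the dotted line and untagged below it, coloured by score percentile within the list. At COL1A1 the FLAG libraries hold 5 to 9 squares and WT 1 and 0, whereas inside COL19A1 squares appear mainly in untagged A442M and WT.

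Beaded filament genes, the chains of type VI microfibrils, differed among themselves. COL6A3 had 14 (73.6 per Mb), of which 1 was shared by all libraries and 1 overlapped the gene itself. COL6A2 had 4 and COL6A6 had 1, while COL6A1 and COL6A5 had none in any library. Of the transmembrane collagens, COL13A1, of the neuromuscular junction, had 12 regions, COL17A1, a hemidesmosome protein, had 9, COL25A1 had 9, and COL23A1 had 7. Each had at least 1 region in all libraries, and COL23A1 had 3. COL13A1 had 12 and 10 regions in A442M-FLAG, 8 and 7 in G444E-FLAG, 8 and 7 in WT-FLAG, 8 and 8 in A442M, 9 and 5 in G444E, and 5 and 2 in WT. Both A442M-FLAG libraries were above the 10 others, as at COL4A3 and COL12A1 (3 of 41 genes, 7.32%, against 10% of protein-coding genes with a region).

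The multiplexins COL15A1 and COL18A1, which are basement membrane proteoglycans, had 19 and 6 regions. COL15A1 counted 16 and 12 regions in A442M-FLAG, 11 and 8 in G444E-FLAG, 16 and 10 in WT-FLAG, 9 and 8 in A442M, 8 and 5 in G444E, and 8 and 4 in WT. COL18A1 had 3 regions in each of the 6 FLAG libraries, and 2 and 2 in A442M, 2 and 1 in G444E, and 1 and 0 in WT. This gene alone of the 41 had all FLAG libraries above all untagged ones, which held for 2.01% of protein-coding genes with a region. COL7A1, the anchoring fibril of skin, had 5 regions, COL26A1 had 11 and COL28A1 had 13, the last with 2 in all libraries.

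The 10 regions that ranked highest among those called in all 12 libraries lay near COL21A1 (3 regions), COL12A1 (2 regions), COL5A1, COL4A5 and COL4A6, COL28A1, COL5A2 and COL24A1. First came a site outside the COL21A1 span (chromosome 6, 56026577 to 56027400), whose median percentile was 96.6, with a range of 93.4 to 99.8 over the lists. A site inside COL21A1 (56364240 to 56365603) followed with 96.5 (73.9 to 98.2), and one inside COL12A1 (75128614 to 75130128) with 95.9 (93.4 to 97.7). A region inside COL4A5, 7747 bases from its start, had a median of 94.5. The site inside COL5A2 (chromosome 2, 189096613 to 189097571) had 94.0. The remaining sites had medians from 91.7 to 95.1. Over all 407 regions the median percentile in a list was between 48.8 and 59.6, against 50.3 to 50.8 for all regions.

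The number of collagen regions followed the length of the list. It was 258 and 205 in A442M-FLAG, 216 and 147 in G444E-FLAG, 231 and 180 in WT-FLAG, 201 and 174 in A442M, 166 and 128 in G444E, and 132 and 111 in WT. Replicate 1 was higher than replicate 2 in each group, and WT was lowest. As a share of all regions of the library, collagen regions made up 0.500% ± 0.021 in A442M-FLAG, 0.525% ± 0.040 in G444E-FLAG, 0.522% ± 0.040 in WT-FLAG, 0.508% ± 0.020 in A442M, 0.518% ± 0.044 in G444E, and 0.462% ± 0.014 in WT (SD, n = 2 each). Shares of WT, 0.472% and 0.452%, lay below those of the 10 other libraries, the lowest of which had 0.484%. Means of FLAG and untagged libraries were 206 and 152 collagen regions, a ratio of 1.36, and the ratio over all regions was 1.31. For WT-FLAG against WT the ratio was 1.69, against 1.49 over all regions, and for untagged A442M against WT 1.54 against 1.40. No test was made of these sums.

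**Figure D4:**
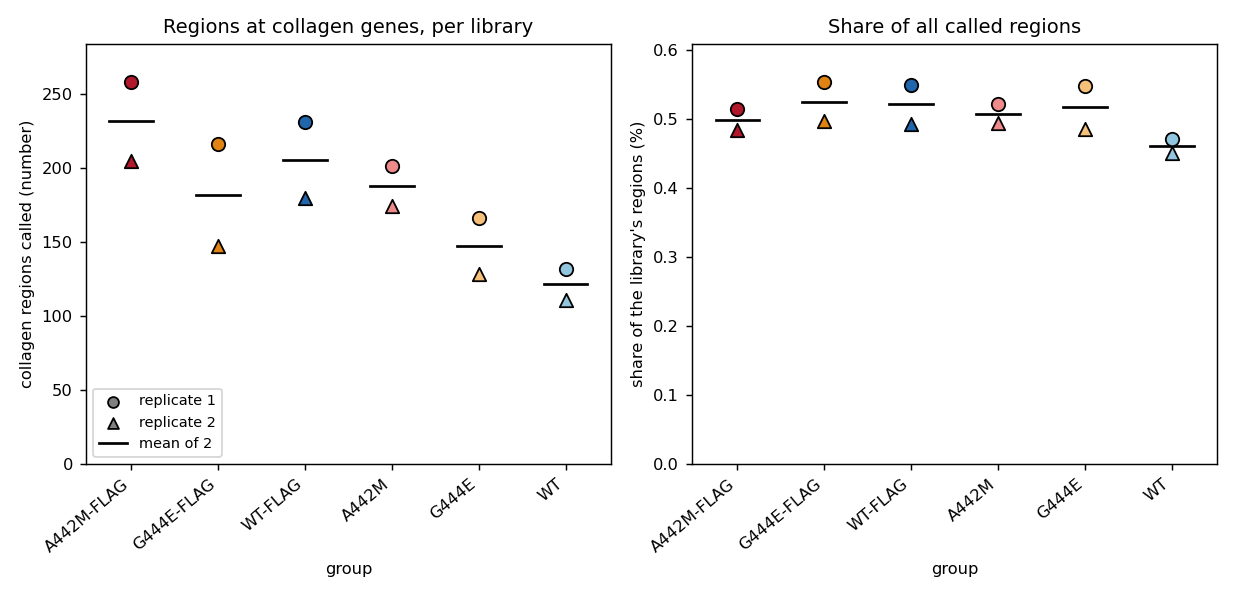
Number of collagen regions called (left) and their share of all regions of the library in percent (right) for each library, by group, with replicate 1 as circles, replicate 2 as triangles and a line at the mean of 2. Counts run from 258 in A442M-FLAG replicate 1 to 111 in WT replicate 2, and the WT shares, 0.472% and 0.452%, are the lowest.

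Whether the tag changes where GATA3 is found was asked region by region, with Fisher's exact test (two-sided) on the calls of 6 FLAG and 6 untagged libraries and Benjamini-Hochberg adjustment over the 11777 regions of the genome whose number of calls could reach p = 0.05. Of these 69 were collagen regions. None passed an adjusted p of 0.05, as none did over the genome (0 of 11777 regions, lowest adjusted p 0.104). The lowest p that Fisher's exact test on 6 against 6 libraries allows is 0.00216. A pass after adjustment therefore needed many regions of the genome at or near that value. At an unadjusted p under 0.05 there were 3 collagen regions (4.35%), against 12.9% of all regions tested, and each had an adjusted p of 0.117. Of the 3, 2 were called more often with FLAG and 1 less often, against 11.3% and 1.63% of all regions tested.

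One of the 3 lay just inside the upper end of COL1A1 (chromosome 17, 50200509 to 50201281, its edge 350 bp from that end). All 6 FLAG libraries called it, and of the untagged ones G444E replicate 2 alone (exact p = 0.0152). Percentiles were 31.4 and 28.1 in A442M-FLAG, 42.3 and 60.2 in G444E-FLAG and 34.9 and 24.1 in WT-FLAG, against 4.72 in that G444E library. The next region, outside the gene from 50208585 to 50209913, was called in 5 FLAG and 1 untagged library (exact p = 0.0801). A region beyond COL15A1 (chromosome 9, 99075361 to 99075975) was called in 5 FLAG libraries and no untagged one (exact p = 0.0152), with percentiles between 3.13 and 38.9.

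The third went the other way. A 380 bp region inside COL26A1, 39405 bases from its start (chromosome 7, 101402091 to 101402470), was called in all 6 untagged libraries and in 1 FLAG library, G444E-FLAG replicate 1 (exact p = 0.0152). It ranked high wherever it was called. The percentile was 95.6 in that FLAG library, 96.8 and 94.6 in A442M, 97.8 and 95.4 in G444E, and 98.8 and 98.7 in WT. No peak overlapped it in the 5 other FLAG lists. The p of 0.0801 was shared by 10 collagen regions, 8 called more often with FLAG and 2 less often. They lay at COL1A1, COL5A1, COL9A2, COL4A3, COL17A1, COL18A1, COL27A1 and COL28A1, and, with 1 FLAG and 5 untagged calls each, at COL5A2 (chromosome 2, 189287253 to 189287761) and inside COL4A5.

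Mutants were compared with WT in the same way, 8 libraries of A442M and G444E against 4 of WT. Of 26654 regions tested none passed the adjusted threshold, and none of the 127 collagen regions tested did (Fisher's exact test, adjusted p = 1.0 throughout). With 8 against 4 libraries the lowest p that Fisher's exact test allows is 0.00202, so here too a pass needed many regions at such values. No collagen region had an unadjusted p under 0.05, against 0.311% of all regions tested (0.206% called more often in mutants and 0.105% less often). The lowest collagen values among those tested were for a region inside COL4A1 (chromosome 13, 110263298 to 110263779) and one inside COL8A1 (chromosome 3, 99753219 to 99753766), both called in 7 of 8 mutant and 1 of 4 WT libraries (exact p = 0.0667 each). A weak COL5A2 region (chromosome 2, 189356899 to 189357533) was called in 5 mutant and 0 WT libraries (exact p = 0.0808). Next among those tested came 4 regions with an exact p of 0.208, at COL17A1, COL4A6, COL5A2 and COL18A1. A further 3 had an exact p of 0.222, at COL5A2, COL11A1 and COL10A1. Regions whose number of calls put the threshold out of reach were not ranked. Among them was a region inside COL8A1 (chromosome 3, 99774556 to 99774985). It was called in 4 of 4 WT and 2 of 8 mutant libraries (Fisher's exact test, p = 0.0606). Also unranked were the 17 regions called in every library except both untagged WT libraries (Fisher's exact test, p = 0.0909 each).

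Pairs of groups, 2 libraries against 2, cannot be tested to that threshold, so the regions that one group called in both of its libraries and the other group in neither were counted beside the same share over all regions called in any of the 4 libraries. Comparisons with a group in common share its libraries. Untagged A442M had 37 collagen regions that WT lacked (14.3% of 258), against 11.0% over all regions. In the opposite direction there was 1 (0.388%), inside COL8A1, against 1.08%. The A442M regions ranked highest were one inside COL13A1 (chromosome 10, 69895604 to 69896611), the COL4A2 region above and one beyond COL5A2 (chromosome 2, 189487195 to 189487985). All 3 were called in every library except WT. At the COL13A1 site percentiles were 99.0 and 99.2 in A442M-FLAG, 92 and 91.3 in G444E-FLAG, 95.2 and 95.6 in WT-FLAG, 89.5 and 86.5 in A442M, and 86.8 and 81.4 in G444E. With all lists cut to the length of the shortest, A442M had 18 such regions and WT 7. For lists of equal length, here and below, no share over all regions is given, so these counts have no background. In number of regions 17 of 41 genes were higher in both A442M libraries than in both WT libraries (41.5%), against 27.8% of protein-coding genes, and 0 were lower, against 1.09%. Collagen genes are longer and hold more regions, a median of 7 a gene against 4. Shares of genes without overlap, here and elsewhere in this report, were not matched for length or number of regions.

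Untagged G444E had 26 collagen regions that WT lacked (11.2% of 232), against 8.72% over all regions, and WT had 14 that G444E lacked (6.03%), against 6.27%. The COL4A2 and COL13A1 sites led again, followed by one inside COL5A1 (chromosome 9, 134744666 to 134745481), with percentiles of 71.7 and 77.8 in G444E. On the WT side the COL19A1 site ranked first, before sites inside COL17A1 (chromosome 10, 104049565 to 104050172) and COL28A1 (chromosome 7, 7461956 to 7462305). In number of regions 10 of 41 genes, COL1A1 and COL1A2 among them, were higher in G444E (24.4%, against 18.1% of protein-coding genes). COL10A1, COL19A1, COL6A2 and COL17A1 were lower (9.76%, against 7.60%). In lists of equal length G444E had 25 collagen regions that WT lacked, and WT had 13 that G444E lacked.

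Untagged A442M had 19 collagen regions that G444E lacked (7.20% of 264, against 8.28%), with sites of COL17A1 and COL19A1 first, and G444E had 6 that A442M lacked (2.27%, against 1.38%). These 6 included sites inside COL5A2 (chromosome 2, 189411636 to 189412669), COL12A1 (chromosome 6, 75150772 to 75151408) and COL4A1 (chromosome 13, 110247669 to 110248337). The COL5A2 and COL12A1 sites were called in both libraries of G444E and of every FLAG group, and in no untagged A442M or WT library. In number of regions 12 of 41 genes were higher in A442M (29.3%, against 17.6% of protein-coding genes) and 0 lower (against 2.64%). In lists of equal length there were 9 regions on the A442M side and 10 on the G444E side.

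With the tag, A442M-FLAG had 24 collagen regions that WT-FLAG lacked (7.10% of 338, against 7.15% over all regions) and WT-FLAG had 5 that A442M-FLAG lacked (1.48%, against 1.89%). On the A442M-FLAG side the first sites lay before COL5A1 (chromosome 9, 134619426 to 134619813 and 134609327 to 134609763) and inside COL13A1 (chromosome 10, 69892730 to 69893197). Sites inside COL9A3 (chromosome 20, 62822858 to 62823198), before COL12A1 inside TMEM30A, and by COL1A1 led the WT-FLAG side. G444E-FLAG had 3 collagen regions that WT-FLAG lacked (1.01% of 296, against 0.659%), near COL5A2 (2 regions) and COL6A3, none above percentile 6.50 in its lower list. WT-FLAG had 13 that G444E-FLAG lacked (4.39%, against 3.11%), led by sites inside COL4A5 (chromosome X, 108558123 to 108558639), COL4A6 and COL4A2. A442M-FLAG had 33 that G444E-FLAG lacked (9.91% of 333, against 11.0%), led by sites inside COL21A1 (chromosome 6, 56363082 to 56363764), before COL5A1 and inside COL4A5. G444E-FLAG had 7 that A442M-FLAG lacked (2.1%, against 1.38%), led by sites near COL8A1 (inside CMSS1), inside COL9A3 and by COL1A1. In lists of equal length A442M-FLAG held 8 such regions to 5 of WT-FLAG, G444E-FLAG 2 to 3 of WT-FLAG, and A442M-FLAG 10 to 7 of G444E-FLAG.

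In number of regions, COL5A1, COL5A2, COL4A3, COL12A1 and COL13A1 were higher in A442M-FLAG than in WT-FLAG with no overlap (12.2% of 41 genes, against 16.0% of protein-coding genes), and COL4A5 was lower (2.44%, against 2.81%). COL2A1, COL4A3, COL4A5 and COL4A6 were lower in G444E-FLAG than in WT-FLAG (9.76%, against 9.30%), and 0 were higher (against 1.30%). Against G444E-FLAG, 12 genes were higher in A442M-FLAG (29.3%, against 23.1%) and 0 lower (against 1.51%).

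FLAG and untagged cells of one genotype were compared last. WT-FLAG had 60 collagen regions that WT lacked (20.1% of 298, against 16.8% over all regions), with the COL4A2, COL13A1 and COL5A1 sites first, and WT had 11 that WT-FLAG lacked (3.69%, against 4.34%), with those of COL26A1, COL19A1 and COL28A1. In number of regions 18 of 41 genes were higher in WT-FLAG with no overlap (43.9%, against 40.1% of protein-coding genes) and COL19A1 was lower (2.44%, against 4.52%). In lists of equal length WT-FLAG had 30 regions that WT lacked, and WT had 16 that WT-FLAG lacked. A442M-FLAG had 38 that A442M lacked (11.2% of 340, against 12.5%), led by sites of COL21A1, COL1A1 and COL13A1. A442M had 14 that A442M-FLAG lacked (4.12%, against 4.71%), led by COL26A1, COL9A1 and COL19A1. In lists of equal length there were 12 on the A442M-FLAG side and 18 on the A442M side, with no share over all regions to set beside them. By number of regions 12 of 41 genes were higher in A442M-FLAG than in A442M (29.3%, against 30% of protein-coding genes), and COL4A5, COL4A6, COL9A1, COL19A1 and COL25A1 were lower (12.2%, against 5.93%). G444E-FLAG had 7 collagen regions that G444E lacked (2.67% of 262, against 3.57%), led by COL9A3, COL4A1 and COL18A1, and G444E had 0 that G444E-FLAG lacked, against 0.700%. In lists of equal length the counts were 2 and 0.

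**Figure D5:**
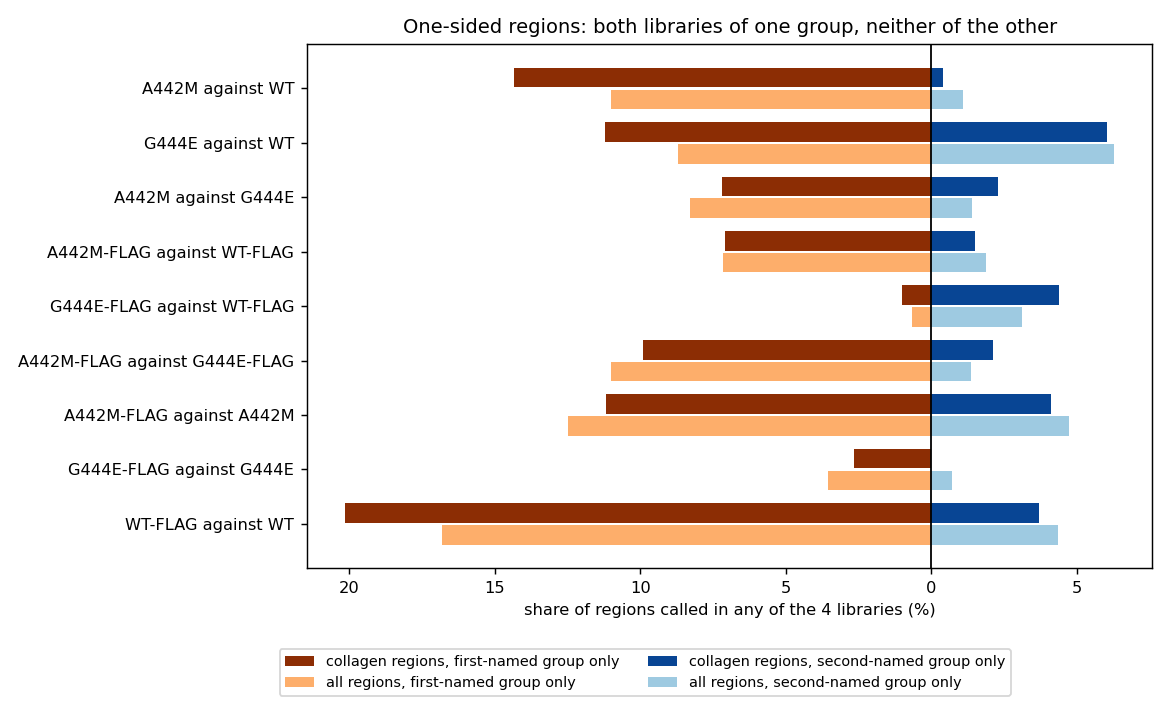
Share of regions, in percent of those called in any of the 4 libraries, that both libraries of one group called and neither of the other, for 9 pairs of groups. Bars left of 0 are for the first-named group and bars right of 0 for the second, dark for collagen regions and light for all regions. The highest bar is WT-FLAG against WT with 20.1%, against 16.8% of all regions.

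Across the 6 groups, 17 collagen regions (4.18%) were called in every library except both WT libraries, against 2.61% of all regions, and they lay by COL1A1, COL5A1, COL5A2, COL4A1, COL4A2, COL4A3, COL16A1, COL21A1, COL6A3, COL13A1 and COL28A1. The 6 genes in which both WT libraries had fewer regions than all 10 others were COL1A2, COL5A1, COL5A2, COL11A2, COL4A1 and COL16A1. A442M-FLAG alone called 15 collagen regions (3.69%), against 4.00% of all regions, 3 of them by COL5A2. No collagen region was called in all FLAG libraries and no untagged one, or in all libraries except A442M-FLAG, patterns that held for 0.291% and 0.215% of all regions.

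Genes that process or sense collagen were described from a list made from textbook knowledge. Of 32 genes of biosynthesis and crosslinking 31 had a region and 16 had one in all libraries (50%). Of 9 receptor genes 8 had a region and 6 had one in all libraries (66.7%), against 40.6% of protein-coding genes. The shares in this paragraph were not matched for gene length. ITGA2, a collagen-binding integrin chain, had 26 regions with 7 in all libraries, and P3H2, a prolyl hydroxylase of basement membrane collagen, had 34 with 6. ITGA1, another collagen-binding integrin chain, had 16 with 4, and LOXL2, a crosslinking enzyme, had 20 with 3. None of the regions tested around these genes passed the adjusted threshold (Fisher's exact test), among 31 biosynthesis and 17 receptor regions tested for the tag and 90 and 29 for the mutants. Of the 32 biosynthesis genes 11, and of the 9 receptor genes 4, had a region in A442M that WT lacked, against 27.1% of protein-coding genes. The reverse held for 1 and 0, against 2.79%. In WT-FLAG 16 biosynthesis and 5 receptor genes had a region that WT lacked, against 40.3% of protein-coding genes. The reverse held for 3 and 2, against 9.87%.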

How the data were processed

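Per the labels' protocols, GATA3 complexes were precipitated from sonicated nuclei and sequenced from Takara ThruPLEX libraries. MACS2 2.1.4, FastQC and the build hg38 are named, without roles, per the submitters' processing notes. For aligner, depth and control the sources used here give nothing. The names of the peak lists speak of 5-fold peaks, without saying over what, and no other filter is named. Each deposited list holds the peaks of 1 library, 25248 to 51694 in number, so peaks were called per sample. The deposited score per peak is the authors' own, at least 5.00, on a scale the files do not name, and its use here was restricted to ranks and a minimum inside a list. Without read counts, depth is unknown and no counting interval was computed.

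Peaks were merged at an overlap of 1 bp, a library called a region where it had a peak, and gene spans came from RefSeq GRCh38.p14, which gives no exons, so exons, introns and UTRs were not assigned. Coordinates are 1-based. Calls were tested with Fisher's exact test (scipy 1.17.1), whose code was tested on simulated data, and p-values were adjusted over the genome. Single regions were named by rule: the 10 highest ranked in all libraries, the 8 with the lowest p in each test, with ties, the 3 highest on each side of each pair, and those at starts. Other genes and regions were named after their values had been seen. The members and lists were chosen with earlier results of these data known. Across regions, differences between replicates correlated at 0.113 to 0.290 in all 15 group pairs. Replicate 1 had the longer list in every group, and list length was not held fixed. These correlations therefore cannot show that same-number libraries form pairs, and the labels do not say what a number shares. The replicate number was used as a block in an alternative only. Alternatives were a score of at least 10, lists of equal length, calls covering at least 50% of a region, windows of 10 kb and 0 kb, the replicate block, a subset of libraries and each library left out.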

Additional observations from a re-analysis of the deposited data

Results flagged for a closer look

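In number of regions, 2 basement membrane genes had differences that ran in opposite directions in 2 settings with no overlap between the libraries compared, and neither difference was itself tested. Opposite directions of this kind, in any pair of settings, held for these 2 of 41 collagen genes with a region (4.88%), against 4.45% of protein-coding genes with one, so the share was near the background. COL4A5 had 3.5 more regions on average in A442M than in WT without the tag (12 and 11 against 9 and 7), and with the tag 7 and 6 in A442M-FLAG against 10 and 9 in WT-FLAG, a difference of -3.0. COL4A6 had 4.5 more regions in WT-FLAG than in WT (15 and 14 against 10 and 10), and 14 and 12 in A442M-FLAG against 16 and 15 in A442M, a difference of -2.5. The windows of both genes share 9 regions, so the results are not independent. For COL4A6 both comparisons set FLAG libraries, with 16 to 24 peaks on unplaced contigs, against untagged A442M or WT, with 57 to 110, and the part of that difference was not tested. For COL4A5 each comparison stayed on one side of it, while the contrast between them did not.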

How the results depend on the processing

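No collagen region passed the adjusted threshold in either Fisher's exact test under any alternative run, and 0 to 17 did at an unadjusted p under 0.05. With so few libraries a pass needed many regions of the genome near the lowest p the test allows. The 0 therefore does not show that calls at collagen genes are alike. With the replicate number as a block, 0 collagen regions passed in both tests, with 3 and 0 unadjusted, so the block changed no call. Within untagged G444E and the 3 FLAG groups, which lie on one side of the contig divide, 0 passed. Each test there had 1 group of 2 libraries on one side, so an adjusted p under 0.05 was hardly within reach. The 0 in this subset therefore decides nothing about the divide. Calls that had to cover 50% of a region left 16 regions in all libraries, against 51. In lists of equal length the counts were 18 and 7 for A442M and WT, 25 and 13 for G444E and WT, and 9 and 10 for A442M and G444E. They were 8 and 5 for A442M-FLAG and WT-FLAG, 2 and 3 for G444E-FLAG and WT-FLAG, and 10 and 7 for A442M-FLAG and G444E-FLAG. Between tag states they were 12 and 18 for A442M-FLAG and A442M, 2 and 0 for G444E-FLAG and G444E, and 30 and 16 for WT-FLAG and WT. No share over all regions stands beside these counts. With a score of at least 10 they were 2 for WT over A442M, 8 for WT over G444E, 3 for G444E over A442M, 0 for G444E-FLAG over WT-FLAG, 4 for G444E-FLAG over A442M-FLAG, 4 for G444E-FLAG over G444E, and 5 for WT over WT-FLAG. Leaving out 1 library gives larger counts by construction, since 1 library then stands for its group. The ranges were 45 to 82 and 2 to 13 (A442M and WT), 34 to 60 and 16 to 32 (G444E and WT), 26 to 53 and 10 to 19 (A442M and G444E), 30 to 65 and 10 to 38 (A442M-FLAG and WT-FLAG), 6 to 32 and 23 to 40 (G444E-FLAG and WT-FLAG), 46 to 73 and 11 to 38 (A442M-FLAG and G444E-FLAG), 51 to 85 and 18 to 37 (A442M-FLAG and A442M), 15 to 62 and 4 to 15 (G444E-FLAG and G444E), and 70 to 119 and 13 to 26 (WT-FLAG and WT). For the other moves the cause was not tested. Depth is unknown, so a region without a call may hold signal under the authors' threshold.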
